A study of Mus musculus with 6 samples.

Results

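The genes described here are 10 of the genes that carry peptides to the cell surface on MHC class I, chosen by name from their known function: the light chain B2m, the heavy chains H2-K1 and H2-D1, the peptide transport and loading genes Tap1, Tap2 and Tapbp, the immunoproteasome subunits Psmb8, Psmb9 and Psmb10, and the transactivator Nlrc5. They are 10 of 53379 genes in the count tables, and all 10 passed the filter on low counts, as did 17767 genes in all. The choice of these 10 was made with earlier results of these data known. RNA-seq read counts per gene were analysed from 6 libraries of Min6 cells, a mouse line derived from an insulinoma and widely used in place of pancreatic beta cells, at passage 28. All cells carried lentiCRISPR v2, a lentiviral vector that delivers Cas9 together with a guide RNA (gRNA). In 3 libraries the gRNA targeted the Rosa26 locus, the negative control, and in the other 3 it targeted JunD, an AP-1 transcription factor subunit. Every group was harvested on day 8 after transduction and had spent 30 hours in glucolipotoxic conditions, so no library shows the genes without that treatment or without the vector. The sources used here do not give whether the cells were a pool or a clone, how glucolipotoxic conditions were made, or whether the replicates came from separate cultures. The p-values therefore measure the spread between these libraries, which may be technical.

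MHC class I molecules show fragments of a cell's own proteins to CD8+ T cells. Proteasomes cut the proteins, the TAP transporter moves the peptides into the endoplasmic reticulum, and tapasin holds a newly made heavy chain beside TAP until it binds a peptide. A heavy chain leaves the endoplasmic reticulum stably only when it is paired with B2m. Interferons raise most of these genes together, partly through NLRC5, and swap the constitutive proteasome subunits for the immunoproteasome ones. In beta cells the pathway is known for its hyperexpression in the islets of people with type 1 diabetes, where CD8+ T cells attack these cells.

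Depth ran from 41071566 to 50024931 counts per library. Jund, the targeted gene, stood at 39.3, 34.5 and 30.4 CPM (the count scaled to the library total) in the Rosa26 libraries and at 22.6, 25.1 and 26.9 CPM in the JunD libraries, with no overlap. Its log2 fold change was -0.47 on 6 libraries, short of the threshold in edgeR (adjusted p = 0.417) but past it in DESeq2 (0.0410), and Jund fell by 0.38 without Rosa26 replicate 1 (adjusted p = 0.00773). Transcript level does not measure loss of protein after Cas9 cutting. The library of Rosa26 replicate 1 stood apart from the other 5. It lay at -62.1 on a first principal component holding 45.8% of the variance, where the others lay between 6.09 and 22.5. Its deviations from the median of the other libraries correlated with the GC content of the transcripts (Spearman rho -0.506 across genes, which are not independent replicates), against values from -0.245 to 0.303 in the other 5. A list of 10 structural and ribosomal RNA genes was kept as a sign of RNA quality. It summed to 11288 CPM in that library, to at least 3828 CPM in every Rosa26 library and to 3278 to 3624 CPM in the JunD libraries. The list also differed between the groups without Rosa26 replicate 1. Of its 7 genes tested there, all 7 had log2 fold changes below 0. In edgeR 4 were called lower (adjusted p under 0.05) and 0 higher, beside 1.40% of all genes called lower. Its part in the results was not tested. The members are therefore compared on all 6 libraries and again on the 5 without Rosa26 replicate 1, which leaves 2 Rosa26 libraries, and the wider gene lists mainly on those 5. A gene is said to have risen or fallen only where the adjusted p of edgeR's quasi-likelihood test, corrected by Benjamini-Hochberg over all genes tested, was under 0.05.

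Min6 cells held the marker genes of beta cells, with 14 of 14 tested. Their summed level was 52591 to 91740 CPM in the Rosa26 libraries, lowest in replicate 1, and 90676 to 97193 CPM in the JunD libraries. On the 5 libraries without replicate 1, 6 of the 14 rose and 1 fell, beside 1.45% and 1.40% of all genes tested. Immune cells, which express class I strongly, were checked with 21 marker genes. Of these, 19 had a mean under 1 CPM and Cd3e, Ncr1, Nkg7, Adgre1 and C1qb had no count in any library. Their summed level was 34.8 to 47.1 CPM in the Rosa26 and 49.6 to 55.4 CPM in the JunD libraries, and C1qa alone gave 29.3 to 42.0 and 44.8 to 49.8 CPM of it. For fibroblast and stellate cells (9 markers, Col3a1, Lum and Acta2 at 0) the sums were 2.12 to 4.04 and 2.56 to 4.13 CPM, and for endothelial cells (7 markers) 5.18 to 5.64 and 4.47 to 5.40 CPM. Acinar and ductal markers (11 genes, Cpb1 and Prss2 at 0) summed to 411 to 508 CPM against 549 to 563 CPM, nearly all from the keratin genes Krt7 and Krt19. The part of these shifts in the results below was not tested.

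The light chain gene B2m is where the comparison of the groups turned on 1 library. B2m lies on chromosome 2 at 122147686 to 122153083 (mm10, plus strand) with 4 exon blocks. Its level was 50.9, 71.3 and 67.7 CPM in Rosa26 replicates 1, 2 and 3 and 52.5, 53.0 and 53.7 CPM in JunD replicates 1, 2 and 3. The 3 JunD libraries were within 2 CPM of each other, 2 Rosa26 libraries stood well above them, and Rosa26 replicate 1 stood below all of them. On all 6 libraries the means were 63.3 ± 10.9 CPM (SD, n = 3) with Rosa26 gRNA and 53.1 ± 0.609 CPM (SD, n = 3) with JunD gRNA, and the log2 fold change of JunD against Rosa26 was -0.24 ± 0.12 (SE), which missed the threshold (adjusted p = 0.433). On the 5 libraries without Rosa26 replicate 1, B2m fell by 0.38 on the log2 scale (SE 0.05, adjusted p = 0.000149).

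B2m is unlike the other genes of the pathway in GC content. Its transcript held 41.2% G and C, and 9.9% of the genes tested held less, while the other 9 members held 52.5 to 57.1%. Among the 5 libraries, low-GC genes tended to read high in the 2 Rosa26 libraries (rho -0.188 and -0.245). JunD replicates 1 and 2 had rho of 0.061 and 0.025, and JunD replicate 3 leaned the other way (rho 0.303). The rho values of the groups did not overlap, and the part of composition in the B2m difference was not tested. After correcting for transcript GC content and length on the 5 libraries, B2m stood at 68.8 and 65.6 CPM against 53.8, 53.7 and 55.7 CPM, and it still fell, by 0.31 on the log2 scale (SE 0.05, adjusted p = 0.000255). With the correction fitted on all 6 libraries, Rosa26 replicate 1 moved further away, to 44.8 CPM beside 70.6 and 67.5 CPM, and the log2 fold change was -0.13 (adjusted p = 0.743). No 50-base stretch of the B2m transcript recurred in another gene's annotated transcripts.

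**Figure D1:**
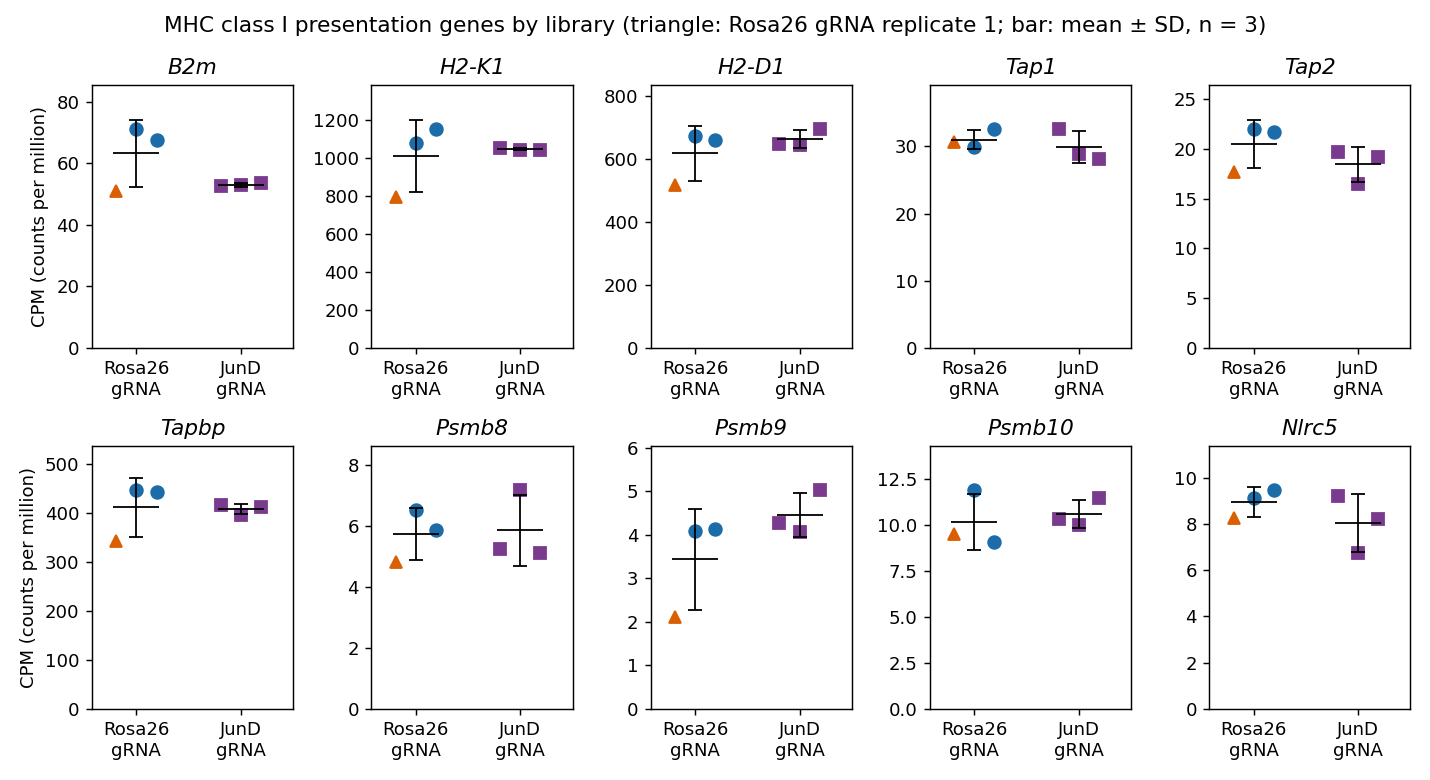
Level of each of the 10 genes in every library, in CPM on linear axes that start at 0, with a bar at each group's mean and whiskers of 1 SD (n = 3); triangles are Rosa26 gRNA replicate 1, circles replicates 2 and 3, squares the JunD gRNA libraries. In B2m the circles sit at 71.3 and 67.7 CPM and the squares at 52.5 to 53.7 CPM, while the triangle sits at 50.9 CPM.

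The heavy chain genes encode the polymorphic chain that holds the peptide, and neither passed the test without the GC and length correction. H2-K1 (chromosome 17, 33996017 to 34000347, minus strand) stood at 797, 1082 and 1155 CPM with Rosa26 gRNA and at 1052, 1043 and 1045 CPM with JunD gRNA. H2-D1 (chromosome 17, 35262730 to 35267499, plus strand) stood at 519, 675 and 662 CPM and at 649, 645 and 696 CPM. In both genes the lowest of the 6 libraries was Rosa26 replicate 1, and the other 5 lay close together. On 6 libraries the log2 fold changes were 0.06 ± 0.13 for H2-K1 and 0.12 ± 0.11 for H2-D1 (SE, adjusted p = 0.825 and 0.608). On 5 libraries they were -0.09 ± 0.03 and -0.01 ± 0.04 (SE, adjusted p = 0.168 and 0.968), and with the GC and length correction H2-K1 came to -0.11, past the threshold (adjusted p = 0.0313). The sum of H2-K1 and H2-D1, which covers only reads split between these 2 genes, was 1316, 1757 and 1816 CPM against 1701, 1688 and 1741 CPM, with overlapping groups. Over all listed heavy chain genes of the H2 region the sum was 1538, 2019 and 2088 CPM against 1951, 1942 and 1997 CPM, also overlapping. In the transcripts, 8.11% of the 50-base stretches of H2-K1 and 14.3% of those of H2-D1 also occurred in other genes, mainly other class I genes, so small differences in either are uncertain. The sources used here do not give how such reads were counted.

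Because RNA input and scaling cancel within a library, the heavy chains were also set against the light chain, a ratio chosen after the data were seen and given without a test. The count of H2-K1 plus H2-D1 was 25.8, 24.6 and 26.8 times that of B2m in the Rosa26 libraries and 32.4, 31.8 and 32.4 times in the JunD libraries. All 3 JunD libraries lay above all 3 Rosa26 libraries, replicate 1 included, with means of 25.8 ± 1.10 and 32.2 ± 0.318 (SD, n = 3) and a ratio of means of 1.25. Per transcript length (TPM, the level scaled by exon length and library) the same ratio was 7.94 ± 0.330 and 9.94 ± 0.106. Each heavy chain alone gave the same order, at 15.7, 15.2 and 17.1 against 20.0, 19.7 and 19.4 for H2-K1 and at 10.2, 9.46 and 9.78 against 12.4, 12.2 and 13.0 for H2-D1. Among all genes tested, 6.77% had a count relative to H2-K1 plus H2-D1 that was lower in every JunD library than in every Rosa26 library, and B2m was 1 of these 1202 genes.

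The order in replicate 1 rested on values uncorrected for composition. After the GC and length correction on 6 libraries, the log2 ratio of H2-K1 to B2m was 4.36, 3.89 and 4.08 against 4.21, 4.21 and 4.14, so Rosa26 replicate 1 became the highest library and the groups overlapped. With the correction on 5 libraries, H2-K1 to B2m was 3.97 and 4.16 against 4.29, 4.28 and 4.21, and H2-D1 to B2m was 3.30 and 3.36 against 3.59, 3.59 and 3.61, with the groups apart in both. Tapbp relative to B2m was also higher in every JunD library in counts, at 6.71, 6.28 and 6.55 against 7.91, 7.45 and 7.67. With the correction its log2 difference was -0.03 on 6 libraries, with overlap, and 0.13 on 5, with the groups apart. In counts, Psmb8, Psmb9 and Psmb10 relative to B2m were higher in every JunD library too, while Tap1, Tap2 and Nlrc5 overlapped. For Psmb8 the groups were barely apart, at 0.0946 in Rosa26 replicate 1 and 0.0949 in JunD replicate 3. The order was thus not particular to the heavy chains. The share of all genes with that order relative to B2m was not counted.

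**Figure D2:**
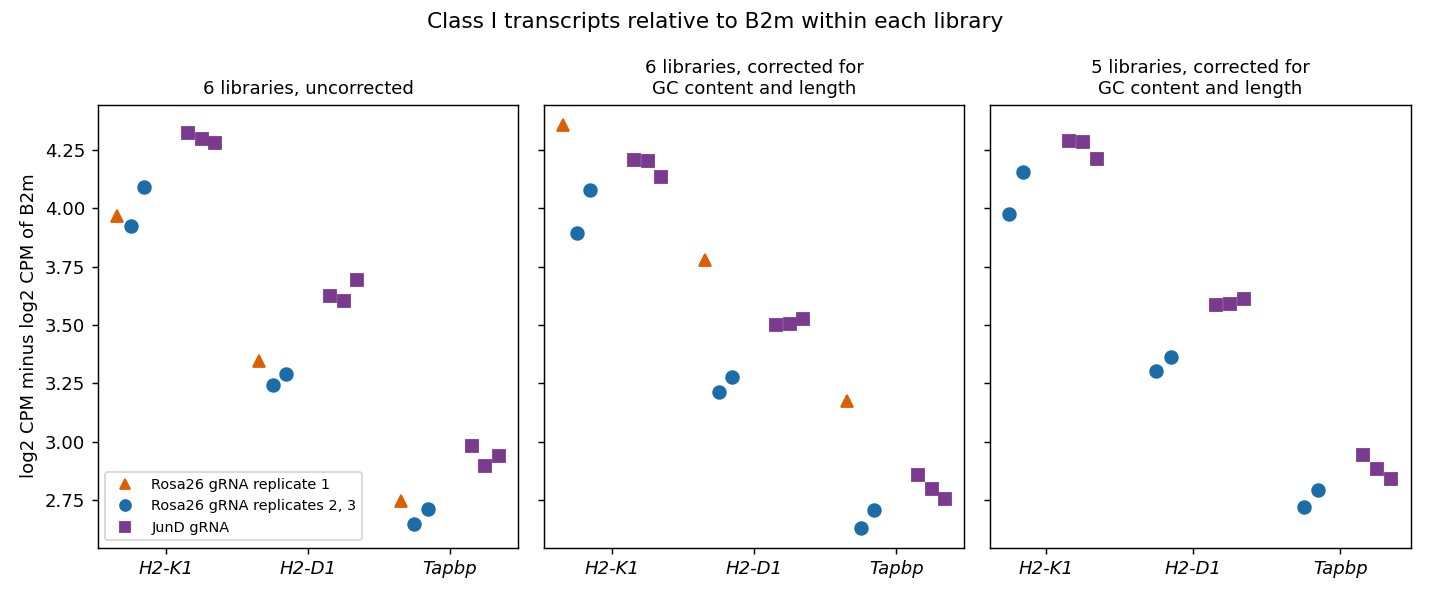
Log2 CPM of H2-K1, H2-D1 and Tapbp minus log2 CPM of B2m in each library, uncorrected on 6 libraries (left), and with the GC and length correction on 6 (middle) and 5 libraries (right); triangles are Rosa26 gRNA replicate 1, circles replicates 2 and 3, squares the JunD gRNA libraries. For H2-K1 the triangle lies at 3.97 on the left, below the squares, and at 4.36 in the middle, above them.

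The DNA upstream of B2m and H2-K1 is shown because their products form 1 molecule and because JunD binds AP-1 sites. Both sequences are the 250 bases before the annotated start, from RefSeq (GRCm38.p6), at chr2:122147437-122147686 on the plus strand for B2m and at chr17:34000348-34000597 on the minus strand for H2-K1. Capitals mark the matches to an interferon-stimulated response element (ISRE) and to the NF-kB consensus.
B2m: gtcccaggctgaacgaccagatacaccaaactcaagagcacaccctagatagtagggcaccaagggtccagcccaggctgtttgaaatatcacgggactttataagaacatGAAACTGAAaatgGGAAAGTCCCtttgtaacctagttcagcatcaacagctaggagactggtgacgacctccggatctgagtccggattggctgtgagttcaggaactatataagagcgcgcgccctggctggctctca
H2-K1: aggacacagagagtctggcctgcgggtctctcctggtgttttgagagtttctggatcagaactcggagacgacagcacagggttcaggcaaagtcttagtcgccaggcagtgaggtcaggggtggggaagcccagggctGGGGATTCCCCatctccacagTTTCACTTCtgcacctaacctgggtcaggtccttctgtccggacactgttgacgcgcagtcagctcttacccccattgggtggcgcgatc
In B2m the ISRE match lies at bases -139 to -131 and the NF-kB match at -126 to -117 from the start, and in H2-K1 the NF-kB match lies at -111 to -101 and the ISRE match, on the other strand and in the shifted letters below, at -90 to -82.

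Upstream sequence was matched for 8 of the 10 genes, and Tap2 and Nlrc5 were not analysed here. The AP-1 motif TGANTCA and the CRE motif TGACGTCA, searched on both strands, matched in 0 of 8, and in 6.87% and 1.62% of the 27025 promoters of that length in the table. The NF-kB consensus matched in B2m, H2-K1 and H2-D1 (7.01% of all promoters) and CCAAT in 6 of 8 (34.5% of all). The ISRE letters TTCNNTTTC matched in B2m (7.16% of all), and the shifted letters TTTCNNTTC, added after the sequences were read, matched in H2-K1 and H2-D1 (6.34% of all). A GAS motif, TTCNNNGAA, matched in Psmb8 (7.18% of all). These are matches of letters in this window and carry no information on which factor was bound.

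The transporter genes and tapasin gave small differences. Tap1 and Tap2 leaned lower with JunD gRNA on 6 and on 5 libraries, and Tapbp only once replicate 1 was left out. Tap1 (chromosome 17, 34187553 to 34197225, plus strand), the first chain of the peptide transporter, stood at 30.6, 29.9 and 32.6 CPM and at 32.6, 28.8 and 28.2 CPM, with overlapping groups. Tap2 (chromosome 17, 34203527 to 34216321, plus strand), its partner chain, stood at 17.7, 22.01 and 21.7 CPM and at 19.7, 16.4 and 19.2 CPM. Without Rosa26 replicate 1 the Tap2 groups did not overlap, and the transporter's 2 chains had log2 fold changes of -0.06 and -0.24 ± 0.08 (SE), both short of the threshold (adjusted p = 0.761 and 0.133). On 6 libraries they were -0.04 and -0.13 (adjusted p = 0.846 and 0.595).

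Tapbp (chromosome 17, 33915899 to 33929292, plus strand), which encodes tapasin, stood at 342, 447 and 443 CPM with Rosa26 gRNA and at 415, 395 and 412 CPM with JunD gRNA. Its log2 fold change was 0.00 ± 0.11 (SE, adjusted p = 0.993) on 6 libraries and -0.12 ± 0.04 (SE, adjusted p = 0.0753) on 5. On the same 5 libraries the call differed between tools, since DESeq2 gave an adjusted p of 0.0445 and limma-voom of 0.0481. With the GC and length correction on 5 libraries, Tapbp was -0.17 (adjusted p = 0.00121) and Tap2 was -0.29 (adjusted p = 0.0410). Reads cannot all be assigned here if the counting did not use strand, which the sources used here do not give: Tap1 shares 212 exon bases with Psmb9 on the opposite strand, Tap2 shares 533 with Gm15821, and Tapbp shares 904 with the antisense gene Gm19412. Tapbp also shares 149 exon bases with Zbtb22 on the same strand, which strand would not resolve.

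The immunoproteasome genes, which encode the interferon-induced catalytic subunits, gave small differences and none passed the test; Psmb8 and Psmb9 were weakly expressed. Psmb8 (chromosome 17, 34197721 to 34201454, plus strand) stood at 4.81, 6.50 and 5.85 CPM against 5.24, 7.18 and 5.10 CPM. Psmb9 (chromosome 17, 34181987 to 34187764, minus strand) stood at 2.10, 4.08 and 4.12 CPM against 4.26, 4.07 and 5.04 CPM. Psmb10 (chromosome 8, 105935735 to 105938444, minus strand) stood at 9.47, 11.9 and 9.05 CPM against 10.3, 10.01 and 11.4 CPM. The groups overlapped in all 3 genes, and Psmb9 in Rosa26 replicate 1 was well below the other 5 libraries. The log2 fold changes on 6 libraries were 0.04 ± 0.18, 0.39 ± 0.25 and 0.08 ± 0.13 (SE, adjusted p = 0.926, 0.486 and 0.783), and on 5 libraries -0.08, 0.13 and 0.02 (adjusted p = 0.854, 0.758 and 0.958).

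Each immunoproteasome subunit replaces a constitutive one, and the 2 were compared per transcript length within each library. The TPM of Psmb8 was 0.0440, 0.0508 and 0.0481 of that of Psmb5 in the Rosa26 libraries and 0.0402, 0.0542 and 0.0340 in the JunD libraries. For Psmb9 against Psmb6 the ratios were 0.0120, 0.0175 and 0.0187, and 0.0172, 0.0161 and 0.0179. Psmb10 against Psmb7 was higher per length, at 0.268, 0.420 and 0.340, and 0.382, 0.389 and 0.422. That contrast with Psmb8 depended on the exon lengths. In counts, Psmb8 to Psmb5 had means of 0.179 with Rosa26 gRNA and 0.161 with JunD gRNA. Psmb10 to Psmb7 had 0.171 and 0.198, and Psmb9 to Psmb6 stayed low at 0.0314 and 0.0334. The groups overlapped in all 3 ratios, so a shift between the constitutive and the immunoproteasome subunits was not detectable with these libraries. Of the constitutive genes, Psmb6 rose on 5 libraries, from 119 and 113 CPM to 126, 129 and 144 CPM (log2 fold change 0.21 ± 0.05 SE, adjusted p = 0.0345), and it stood at 89.7 CPM in Rosa26 replicate 1. It was the only 1 of 10 tested genes for constitutive subunits and proteasome activators to pass on 5 libraries: Psmb5 (0.15, adjusted p = 0.299), Psmb7 (-0.04, adjusted p = 0.793) and the activator gene Psme4 (-0.12, adjusted p = 0.230) did not. On 6 libraries Psmb6 was at 0.33, Psmb7 at -0.16 and Psme4 at -0.33, none past the threshold (adjusted p = 0.417, 0.482 and 0.417). The exon lengths behind the TPM join all annotated isoforms, retained introns included, which can understate genes such as Psmb8 and Psmb9. For Psmb8 the joined length was 3381 bases and the longest transcript 1907.

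**Figure D3:**
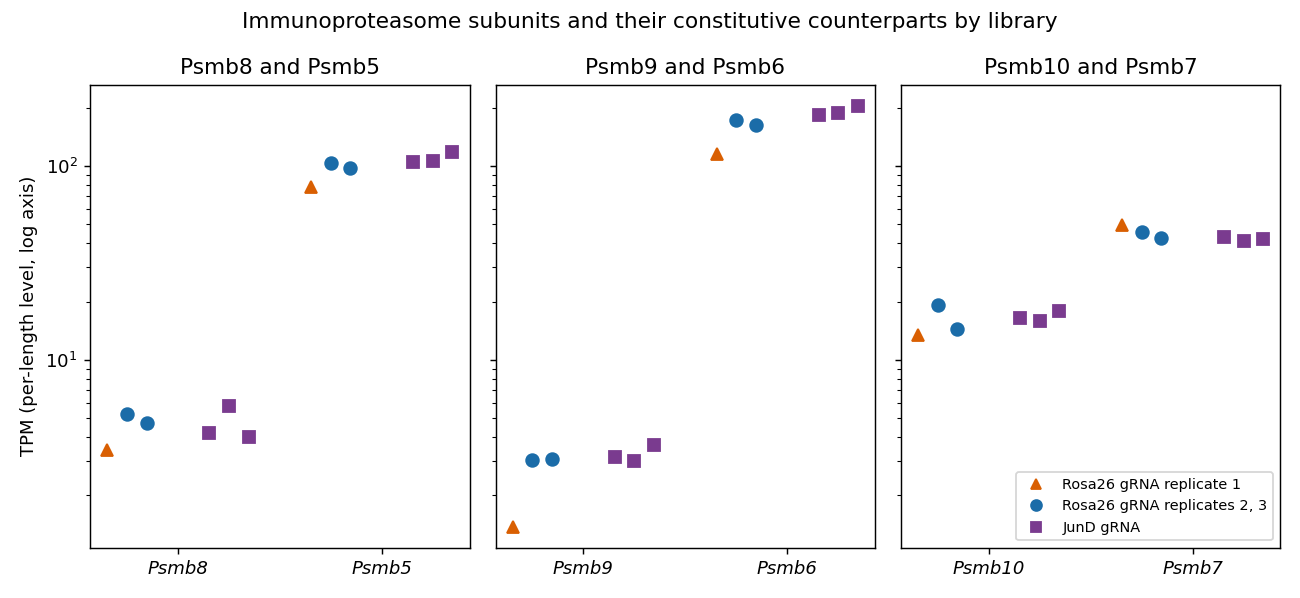
TPM of each immunoproteasome subunit and of its constitutive counterpart in every library, on a log axis; triangles are Rosa26 gRNA replicate 1, circles replicates 2 and 3, squares the JunD gRNA libraries. In TPM, Psmb8 and Psmb9 lie more than 10 times below Psmb5 and Psmb6 in all 6 libraries, while Psmb10 lies at 0.268 to 0.422 of Psmb7. In counts, without exon length, Psmb8 was at 0.128 to 0.204 of Psmb5 and Psmb10 at 0.134 to 0.210 of Psmb7.

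Nlrc5 (chromosome 8, 94434356 to 94527272, plus strand), the transactivator of class I genes, stood at 8.27, 9.16 and 9.51 CPM with Rosa26 gRNA and at 9.23, 6.74 and 8.24 CPM with JunD gRNA. The groups overlapped on 6 and on 5 libraries. Its log2 fold change was -0.14 ± 0.14 on 6 libraries and -0.20 ± 0.12 on 5 (SE, adjusted p = 0.635 and 0.446).

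In level per transcript length the 10 genes fell into 2 ranges. H2-K1 had a mean of 935 TPM over the 6 libraries, H2-D1 663 TPM, Tapbp 301 TPM and B2m 180 TPM, above 96.1 to 99.3% of the genes tested. The other 6 had means of 16.2 TPM for Psmb10, 14.8 TPM for Tap1, 13.7 TPM for Tap2, 4.56 TPM for Psmb8, 2.89 TPM for Psmb9 and 2.67 TPM for Nlrc5. The ranges of Psmb10, Tap1 and Tap2 over the libraries overlapped, as did those of Psmb8 and Psmb9, of Psmb9 and Nlrc5, of Tapbp and B2m (from 226 TPM against up to 227 TPM) and of H2-K1 and H2-D1, although H2-K1 exceeded H2-D1 within each library. No member's range in the upper set, whose lowest value was B2m at 142 TPM, reached that of the lower set, whose highest was Psmb10 at 19.1 TPM.

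Read against all genes, the members' count of calls was as follows. On 6 libraries edgeR called 0 of the 10 members, and 0% of the 17767 genes tested were called higher and 0% lower. At an unadjusted p under 0.05 it had 0 members and 2119 genes, and DESeq2 called 0 members, with 21 genes higher and 47 lower. On 5 libraries edgeR called 1 of 10, B2m, among the 1.40% of 18296 genes called lower, and 0 of 10 among the 1.45% called higher. DESeq2 and limma-voom each added Tapbp on these 5 libraries. With the GC and length correction on 5 libraries 4 members were lower, B2m, H2-K1, Tapbp and Tap2, where 1.15% of all genes were lower.

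Whether groups overlapped in CPM gave a similar picture. On 6 libraries 0 of 10 members had groups that did not overlap, beside 12.8% of all genes lower and 11.6% higher with JunD gRNA. On 5 libraries 4 of 10, B2m, H2-K1, Tap2 and Tapbp, were lower in every JunD library, beside 17.3% of all genes, and 0 of 10 were higher, beside 15.7%. The median log2 fold change of the 10 members was 0.02 on 6 libraries, with 4 below 0, and -0.09 on 5 libraries, with 8 below 0; over all genes tested the medians were -0.0064 and -0.0030.

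**Figure D4:**
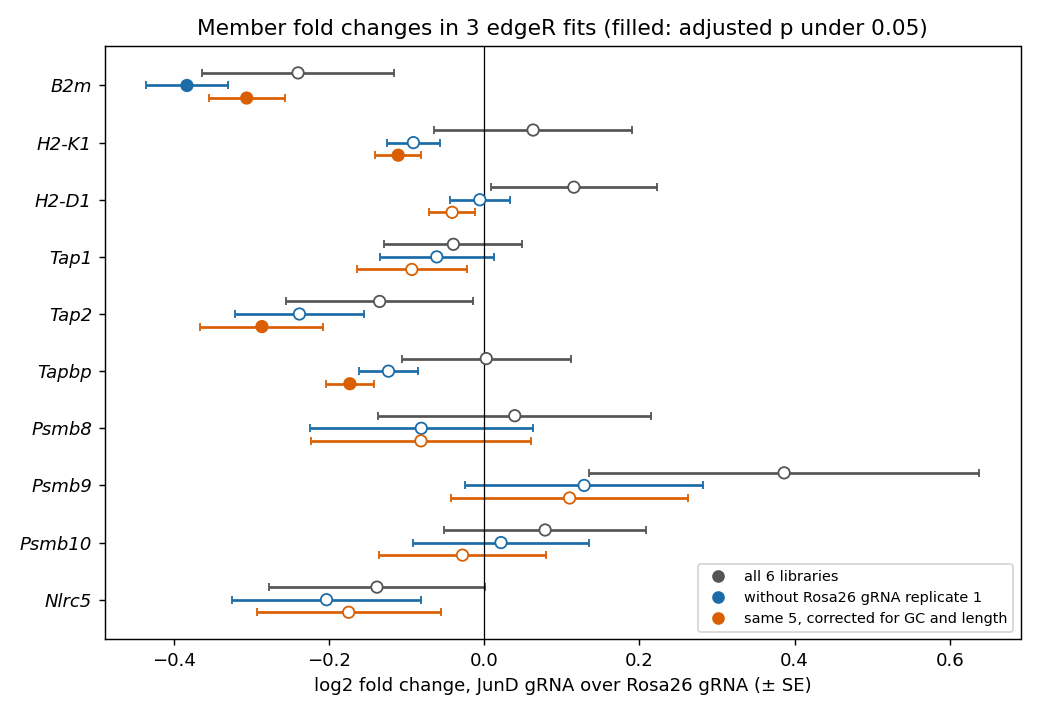
Log2 fold change of JunD over Rosa26 gRNA for each of the 10 genes, with whiskers of 1 SE, fitted on 6 libraries, on 5 libraries without Rosa26 replicate 1, and on those 5 with the GC and length correction; filled points have an adjusted p under 0.05. B2m moves from -0.24 to -0.38 and -0.31, and Tapbp from 0.00 to -0.12 and -0.17.

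Genes that help to load and trim peptides were examined as the next step of the pathway, and 2 of 18 tested fell on 5 libraries while none rose. The 2 were Canx, which encodes the chaperone calnexin, and Hspa5, which encodes the endoplasmic reticulum chaperone BiP. Canx stood at 1079 and 1090 CPM in Rosa26 replicates 2 and 3 and at 1016, 998 and 953 CPM with JunD gRNA (log2 fold change -0.13, adjusted p = 0.0391), with Rosa26 replicate 1 at 1371 CPM, and the call was lost after the GC and length correction (adjusted p = 0.468). Hspa5 stood at 4719, 4479 and 4556 CPM and at 4180, 4164 and 4064 CPM (-0.12, adjusted p = 0.0123). It was lower in every JunD library, as were 12.8% of all genes tested on 6 libraries. Both also serve protein folding in general. The peptide-loading chaperone gene Calr (-0.06, adjusted p = 0.267) and the trimming peptidase genes Erap1 (-0.18, adjusted p = 0.0917) and Lnpep (-0.24, adjusted p = 0.0793) did not pass. On 6 libraries the values of Canx and Lnpep were larger, at -0.24 and -0.46, and short of the threshold (adjusted p = 0.417 for both). The list's median on 5 libraries was -0.07, with 16 of 18 below 0. Hspa5 was chosen for naming after its values were seen.

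The other class I heavy chain genes did not move in 1 direction. Of 13 tested on 5 libraries, H2-T23, which encodes Qa-1, the ligand of the NK cell receptor CD94/NKG2A, rose from 16.2 and 15.2 CPM to 19.8, 18.9 and 18.9 CPM (log2 fold change 0.29, adjusted p = 0.0464). H2-Q4, named after its values were seen, fell from 70.1 and 74.8 CPM to 60.4, 60.4 and 60.3 CPM (-0.26, adjusted p = 0.00723). Rosa26 replicate 1 held 12.6 CPM of H2-T23, on the far side from the JunD libraries, and 61.2 CPM of H2-Q4, close to them. H2-Q2 stood at 32.8 and 31.6 CPM and at 35.5, 39.3 and 38.0 CPM (0.23, adjusted p = 0.0572 in edgeR, 0.0398 in DESeq2 and 0.0496 in limma-voom). H2-M3, which presents formylated peptides, had a log2 fold change of -0.26 (adjusted p = 0.312). With 15% of the 50-base stretches of H2-T23 and 22% of those of H2-Q4 shared with other genes, both calls are uncertain, and that of H2-T23 just missed the threshold after the GC and length correction, with a similar fold (0.27, adjusted p = 0.0537). H2-K1 and H2-D1 made up 85.5 to 87.2% of all heavy chain counts of the H2 region in every library.

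None of 22 tested regulators of class I genes passed on 5 libraries, and none of 15 genes of interferon signalling; at an unadjusted p under 0.05 there were 2 higher and 2 lower among the regulators and 0 higher and 4 lower in interferon signalling, beside 2908 of all 18296 genes. Irf1, an interferon-induced activator of class I promoters, stood at 26.5, 35.8 and 34.9 CPM and at 34.8, 34.7 and 35.6 CPM (log2 fold change -0.01, adjusted p = 0.968, against 0.13 and 0.620 on 6 libraries). Nfkb2 (-0.15, adjusted p = 0.0725) encodes an NF-kB subunit and passed with the GC and length correction (-0.22, adjusted p = 0.00323). Creb1, Rfxap, Ifngr1 and Ptpn2 had values from -0.21 to 0.13, and Ddx58, which encodes the RNA sensor RIG-I, -0.47 (adjusted p = 0.0562). The interferon genes Ifng, Ifnb1 and Ifna1 had 0 counts in all 6 libraries.

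Among 24 tested interferon-stimulated genes, 2 fell on 5 libraries and none rose. The antiviral gene Rsad2 stood at 23.9, 19.5 and 20.6 CPM with Rosa26 gRNA and at 16.0, 15.9 and 15.3 CPM with JunD gRNA (log2 fold change -0.35, adjusted p = 0.0184). The T cell chemokine gene Cxcl10 stood at 7.93, 9.68 and 7.90 CPM and at 6.17, 6.72 and 6.31 CPM (-0.45, adjusted p = 0.0391). In both genes every JunD library lay below every Rosa26 library, replicate 1 included, as in 12.8% of all genes tested on 6 libraries. Both were named for a small p on those same libraries, which favours such separation. Both calls held with the GC and length correction. The guanylate-binding protein gene Gbp7 (-0.33, adjusted p = 0.517, against -0.68 and 0.417 on 6 libraries) did not pass, and the list's median was -0.18 with 18 of 24 below 0.

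Of 13 tested genes for surface ligands that T and NK cells read beside class I, 3 fell on 5 libraries and none rose. Pvr, the poliovirus receptor that binds DNAM-1 and TIGIT, stood at 47.4, 44.0 and 46.3 CPM and at 33.9, 37.5 and 35.2 CPM (log2 fold change -0.34, adjusted p = 0.00341). Icam1, the adhesion ligand of LFA-1, stood at 10.2, 11.6 and 11.9 CPM and at 7.75, 7.86 and 8.81 CPM (-0.52, adjusted p = 0.00664). Cd47, which restrains phagocytes, stood at 241, 214 and 217 CPM and at 204, 182 and 178 CPM (-0.19, adjusted p = 0.0350), and its call was lost after the GC and length correction (adjusted p = 0.222). All 3 genes were lower in every JunD library than in every Rosa26 library, replicate 1 included, as were 12.8% of all genes tested on 6 libraries. They were named for a small p on those same libraries, which favours such separation. On all 6 libraries none of the genes of the wider pathway lists passed in edgeR, with Pvr, Icam1, Rsad2 and Cxcl10 at an adjusted p of 0.417. On the same 6 libraries DESeq2 called Pvr (adjusted p = 0.0191) and Rsad2 (adjusted p = 0.0410), and limma-voom with sample weights called Pvr (0.00591), Icam1 (0.00616), Rsad2 (0.0206) and H2-T23 (0.0473), among the genes named. The background shares of 1.40% lower and 1.45% higher are those for these lists too.

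**Figure D5:**
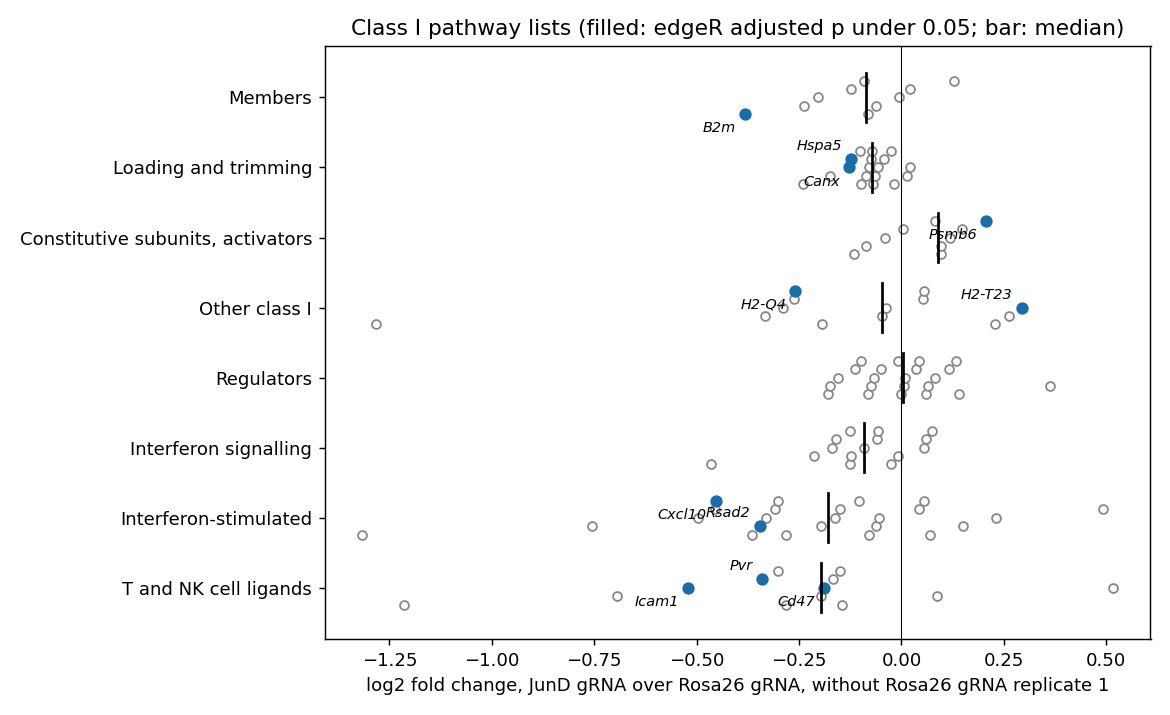
Log2 fold change of JunD against Rosa26 gRNA on the 5 libraries for each gene tested in the 10-gene set and in each wider list, with the genes past the threshold filled and named, and a bar at each list's median. The T and NK cell ligand list has its median at -0.20 and the interferon-stimulated list at -0.18, while the constitutive proteasome list has its median at 0.09.

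The MHC class II pathway, which professional antigen-presenting cells use, was nearly silent apart from 1 gene. H2-Ab1 and H2-Ob had no count in any library, the transactivator gene Ciita stood at 0.06 to 0.38 CPM, and the invariant chain gene Cd74 stood at 2.40, 3.46 and 3.07 CPM and at 3.23, 2.46 and 2.56 CPM. The lysosomal thiol reductase gene Ifi30 gave most of the list's summed level, 65.1 to 109 CPM with Rosa26 gRNA and 99.4 to 106 CPM with JunD gRNA.

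Likeness of pattern was measured as Pearson r with 11535 genes of at least 5 CPM over the same 6 libraries, as a description, since the libraries share 1 outlying sample. B2m was most like Tspan15 (0.994), Serping1 (0.985) and Rdh13 (0.983), with 20 genes above 0.95. H2-K1 was most like Flcn, Rnf167 and Rubcn, each at 0.998 or more, with 341 genes above 0.95, and Tapbp was most like Asb8 (0.997), Cd40 (0.995) and Plod3 (0.995), with 126. Among the members, H2-K1 went with Tapbp (0.958) and with H2-D1 (0.93), whose lowest library in each case was Rosa26 replicate 1.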

How the data were processed

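Whole-number read counts per gene, 1 table for each of 6 libraries, were deposited by the authors; TopHat2, featureCounts and mm10 are named in the submitters' processing notes, with strand and multi-mapping settings not given in the sources used here. Values were used as raw counts. Totals were 41071566 to 50024931, and no 2 libraries agreed within sampling noise. CPM is the count over the library total, and TPM uses GENCODE M21 exon lengths. Genes were filtered with filterByExpr, scaled by TMM and fitted with edgeR 4.0.16 in R 4.3.3 (quasi-likelihood test, two-sided, group alone, Benjamini-Hochberg at 0.05 over all genes tested), on 6 libraries and without Rosa26 replicate 1; SE is the log2 fold change over the root of F. DESeq2 1.42.0 and limma 3.58.1 were alternatives. The GC and length correction is a spline with 5 degrees of freedom per library. Only the uncorrected edgeR fit was tested on simulated data, with folds larger than those of the members called. The GC and length correction was not tested in this way. The 10 members and 18 gene lists (231 entries, all matched) were chosen with earlier results of these data known. Named genes were the members, the 3 of each list with the smallest p on 6 libraries at 1 CPM or more, and fixed genes, of which 1 is not reported here; others are said to be named after their values were seen. Likeness took the 3 highest r.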

Additional observations from a re-analysis of the deposited data

How the results depend on the processing

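All results below are for JunD against Rosa26 gRNA, and calls are given as the number of genes higher, then lower. On 6 libraries the calls moved from 0 and 0 to 21 and 47 with DESeq2, 131 and 162 with limma-voom and sample weights, 33 and 53 without a count filter, and 11 and 14 with the GC and length correction; leaving out 1 library gave 0 to 266 and 0 to 257, the highest without Rosa26 replicate 1. On 5 libraries they were 366 and 210 with the GC and length correction, 331 and 279 with DESeq2, 292 and 296 with limma-voom, and 280 and 249 with relative log expression factors. Members called lower numbered 1 with sample weights (B2m, -0.37, adjusted p = 0.00213), 0 to 1 on leaving out 1 library, and on 5 libraries 4 with the correction, 2 with DESeq2, 2 with limma-voom and 1 with relative log expression factors. The cause of these moves was not tested.

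The replicate numbers did not pair the libraries: deviations of same-numbered libraries correlated at 0.055, -0.039 and 0.074. With the replicate number as a block, 6 libraries gave 0 calls. On 5 libraries that fit gave 475 and 357, with 2 members lower (B2m and Tap2, the latter at an adjusted p of 0.0424). Of the other genes named it also called Nfkb2, H2-Q2, Lnpep, Erap1 and Ddx58 and lost H2-T23 (adjusted p = 0.0830). Without its Rosa26 partner, JunD replicate 1 was alone in its block and added nothing to the group difference. The difference then rested on 2 same-numbered pairs, too few to estimate the spread between libraries well. The block calls on 5 libraries are therefore not a check on the other calls.

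Signs turned in members whose differences were small; "there" means on the 5 libraries without Rosa26 replicate 1. H2-K1 became -0.071 with sample weights and -0.031 with the correction on 6 libraries; there it was -0.111 with the correction, -0.089 with DESeq2, -0.090 with limma-voom, -0.089 with relative log expression factors and -0.094 with the block, and leaving out 1 library gave -0.091 to 0.179. H2-D1 became -0.0063 with sample weights and -0.010 with the correction; there it was -0.041 with the correction, -0.0035 with DESeq2, -0.0035 with relative log expression factors and -0.0051 with limma-voom, and leaving out 1 library gave -0.0055 to 0.186. Tapbp became -0.0053 with upper-quartile factors, -0.011 with library totals, -0.113 with sample weights, -0.00099 at a mean of at least 2 CPM and -0.133 with the correction; there it was -0.173 with the correction, -0.121 with DESeq2, -0.123 with limma-voom, -0.121 with relative log expression factors and -0.138 with the block, and leaving out 1 library gave -0.123 to 0.071. Psmb8 became -0.047 with sample weights and -0.022 with the correction; there it was -0.081 with the correction, -0.077 with DESeq2, -0.104 with limma-voom, -0.079 with relative log expression factors and -0.019 with the block, and leaving out 1 library gave -0.127 to 0.144. Psmb10 became -0.081 and -0.028 with the correction on 6 and 5 libraries, and Tap1 ran from -0.105 to 0.0068 on leaving out 1 library. Irf1 ran from -0.0090 to 0.206 on leaving out 1 library; there it was -0.012 with the correction, -0.0070 with DESeq2, -0.0082 with limma-voom, -0.0069 with relative log expression factors and -0.0040 with the block. With the correction on 6 and 5 libraries Creb1 became 0.037 and 0.013 and Psmb7 0.0070 and 0.045, and on 6 libraries Ptpn2 became 0.0077. Cd74 ran from -0.245 to 0.022 on leaving out 1 library.

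The log2 heavy to light chain difference of 0.32 became 0.24 with Tapbp for the heavy chains, and for H2-K1 with the correction 0.073 on 6 and 0.196 on 5 libraries; these measures were chosen after seeing the data. Depth limits Psmb9, which had 91 counts in Rosa26 replicate 1.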

Other observations

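Psmb9 was the member that deviated most in 1 library: in Rosa26 replicate 1 its difference from the mean of the other 5 libraries was -1.05 on the log2 scale, where that of H2-K1 was -0.47 and that of B2m -0.25. Over the 6 libraries 1295 genes had a Pearson r above 0.95 with Psmb9, against 8 for Tap1, 8 for Tap2 and 4 for Nlrc5.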
